A study of Arabidopsis thaliana with 12 samples.

Results

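Gene expression in regenerated shoots of the *dme-2* mutant of *Arabidopsis thaliana* was compared with that in the callus from which such shoots grow. The comparison takes 6 of the 12 RNA-seq libraries of the series, chosen by genotype and stage alone: 3 of *dme-2* de novo shoots and 3 of *dme-2* calli. All 6 are in the Landsberg *erecta* (Ler) background, and the labels write the genotype as Ler dme-2/-, so that the mutation is shared by both groups and the contrast is one of stage inside the mutant. Calli came from leaf explants of seedlings 14 days after germination, held for 7 days on callus-inducing medium (CIM) with the synthetic auxin 2,4-D and the cytokinin kinetin in continuous dark. Shoots came from such calli moved to shoot-inducing medium (SIM) with indole-3-acetic acid and 2-iP in a long-day photoperiod and were taken 14 days later. Stage, medium, light and age therefore change together and cannot be told apart. The other 6 libraries are the wild type (WT) at the same stages and enter only where a difference from WT was tested.

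*DEMETER* (*DME*) encodes a DNA glycosylase that removes methylated cytosine through base excision repair, with *ROS1*, *DML2* and *DML3* as its relatives. In culture, auxin-rich CIM makes leaf cells form a callus that resembles a lateral root primordium and runs on root genes such as the *LBD*, *PLETHORA* (*PLT*) and *WOX* families. Cytokinin-rich SIM then lets shoot meristems arise, in which class I *KNOX* genes keep cells undifferentiated, and leaves form at their flanks and turn green.

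Levels are given in TPM, the usual relative unit of transcript abundance, which corrects for the length of a transcript and sums to the same total in every library, so that a few very abundant transcripts lower all others. Of 27147 Ler loci, 18729 had a mean of at least 1 TPM over the 6 libraries and were tested, and 4535 were listed at 0 in all 6. Replicates were close: Pearson's r of log2 values lay between 0.981 and 0.986 within shoots, between 0.952 and 0.974 within calli and between 0.536 and 0.566 across the groups. The calli were the more variable, with a median SD of 0.23 on the log2 scale against 0.11 in shoots. The 10 most abundant loci held 6.27% to 6.94% of the TPM of a shoot library and 10.7% to 13.1% of that of a callus library. The methods call the libraries biological replicates. The deposited read counts under the names of the *dme-2* callus libraries do not follow the TPM of the same names, so results rest on TPM and which of these tables carries the right names for these 3 libraries cannot be told apart. In bulk tissue, fewer cells of a type and less RNA per cell cannot be told apart.

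*DME* itself was at 7.89, 7.49 and 7.89 TPM in *dme-2* shoots, against 3.21, 3.14 and 3.54 TPM in *dme-2* calli. The groups did not overlap, and the log2 fold change was 1.03 with an SE of 0.12 (limma, Benjamini-Hochberg adjusted p = 0.00025). In the WT the means were 19.0 TPM in shoots and 11.5 TPM in calli, with the mutant below the WT at both stages, a difference in level that was not tested. The stage change of the locus did not differ detectably between genotypes (difference of log2 fold changes 0.34, limma adjusted p = 0.19). In the count columns the picture was the reverse, with 908, 724 and 797 *DME* counts in *dme-2* shoots and 2126, 2279 and 2542 in the columns named for *dme-2* calli. With libraries rescaled by median ratios the *DME* change was 0.63 and fell short of the cut-off used here for a call.

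A locus was called when its adjusted p was under 0.05 and its log2 fold change, shoots over calli on the log2(TPM + 1) scale, lay above 1 or below -1. This scale understates the change of low transcripts. By this rule 9079 of the tested loci were called: 6296 were higher in *dme-2* shoots, which is 33.6% of the loci tested, and 2783 were lower, which is 14.9%. The groups did not overlap at 78.5% of the tested loci, with all 3 shoot libraries above the calli at 52.7% and below them at 25.8%. Changes were often very large, with 1442 called loci above 3 and 791 below -3 on the log2 scale. The median over all tested loci was 0.48 and not 0. With median ratio scaling the median was 0.05, 4677 loci were called higher and 3933 lower, and the share of calls that were higher was 54.3% in place of 69.3%. Over the same loci as before these are 25.0% higher and, with 3899 of the lower calls among them, 20.8% lower. Under this scaling 64 of the called loci changed sign and 1623 lost the call. Counts and medians of gene groups below are to be read against these backgrounds. A locus near 0 in shoots or in calli met the minimum mean only through the other group, so its direction followed from that filter. This holds for every tested locus below whose mean was under 1 TPM in 1 group, and counts of calls include such loci.

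**Figure D1:**
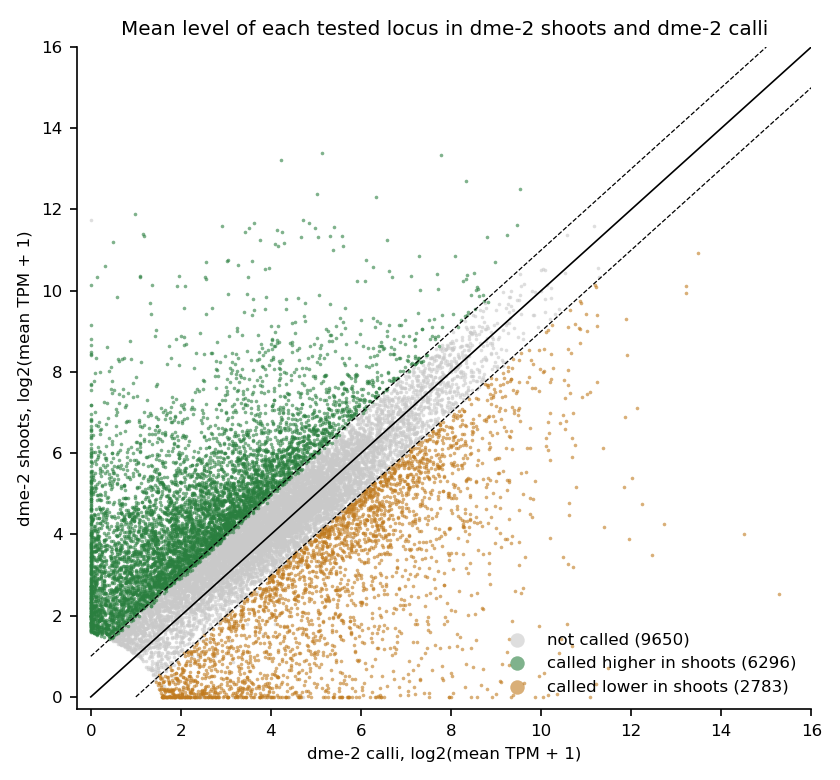
Mean level of every tested locus, with *dme-2* shoots on the vertical axis and *dme-2* calli on the horizontal axis, both as log2(mean TPM + 1). Each point is a locus, the solid line marks equal levels and the dashed lines a difference of 1. Loci called higher in shoots (6296) lie above the diagonal and those called lower (2783) below it.

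The largest rises were mostly those of antenna and Rubisco loci, and the largest fall was that of a protease inhibitor. The rise was led by a locus of *LHCB1.1*, a chlorophyll-binding antenna protein, at 3824, 3681 and 3856 TPM in shoots and 0.610, 0.830 and 1.49 TPM in calli. It was followed by a locus of *RBCS1B*, a small subunit of Rubisco, at 2607, 2208 and 2211 TPM in shoots and 0.660, 0.190 and 0.390 TPM in calli. These loci pair with 5 and 4 genes of the Col reference, so that the share of reads given to each copy is uncertain. *DRN1*, a lipid transfer protein, is a single-copy example, with 1507, 1592 and 1548 TPM in shoots against 0, 0.360 and 0.390 TPM in calli. *AT3G05730* was at 1186, 1104 and 1092 TPM in shoots and listed at 0 in every callus library. Each of the 10 largest rises exceeded 9 on the log2 scale, and 7 of the 10 were antenna or Rubisco small subunit loci.

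The fall was led by *UPI*, a serine protease inhibitor of the potato inhibitor type, which stood at 3.47, 0 and 10.9 TPM in *dme-2* shoots, against 41474, 44746 and 32525 TPM in *dme-2* calli. *OSM34*, an osmotin-like defence protein, was at 17.9, 13.5 and 13.9 TPM in shoots and at 23202, 26057 and 20866 TPM in calli, a ratio of means of 1546 in favour of calli. *PGAZAT*, a polygalacturonase that loosens pectin, was listed at 0 in all shoots and at 1937, 2529 and 2041 TPM in calli. *DOX1*, an alpha-dioxygenase that oxidizes fatty acids, was at 0.0700, 0.0800 and 0 TPM in shoots and at 1328, 1875 and 744 TPM in calli. *E12A11*, also known as *MOTHER OF FT AND TFL1*, was at 0.720, 0 and 0 TPM in shoots and at 2428, 2708 and 2048 TPM in calli. The named or listed loci at 0 TPM in all shoot libraries, 34 in number, had at most 3 read counts in any of them.

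Apart from these, the most abundant transcripts of *dme-2* shoots were those of a *CAB3* locus (10694 ± 171 TPM in shoots, 34.1 ± 11.1 TPM in calli; mean ± SD, n = 3 libraries each), of the catalase *CAT3* (10383 ± 313 and 217 ± 55.9 TPM) and of the Rubisco subunit *RBCS1A* (9499 ± 890 and 17.61 ± 3.35 TPM). Those of *dme-2* calli were, after *UPI* and *OSM34*, the chitin-binding defence protein *PR4* (1956 ± 112 TPM in shoots, 11420 ± 1490 TPM in calli) and the wall protein *EXT4* (1100 ± 221 and 9568 ± 3258 TPM). This ranking is by listed TPM and can miss loci. A locus of *MT1A* was listed at 0 TPM in all *dme-2* and WT calli, though WT calli had 61187 to 98821 counts of it.

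**Figure D2:**
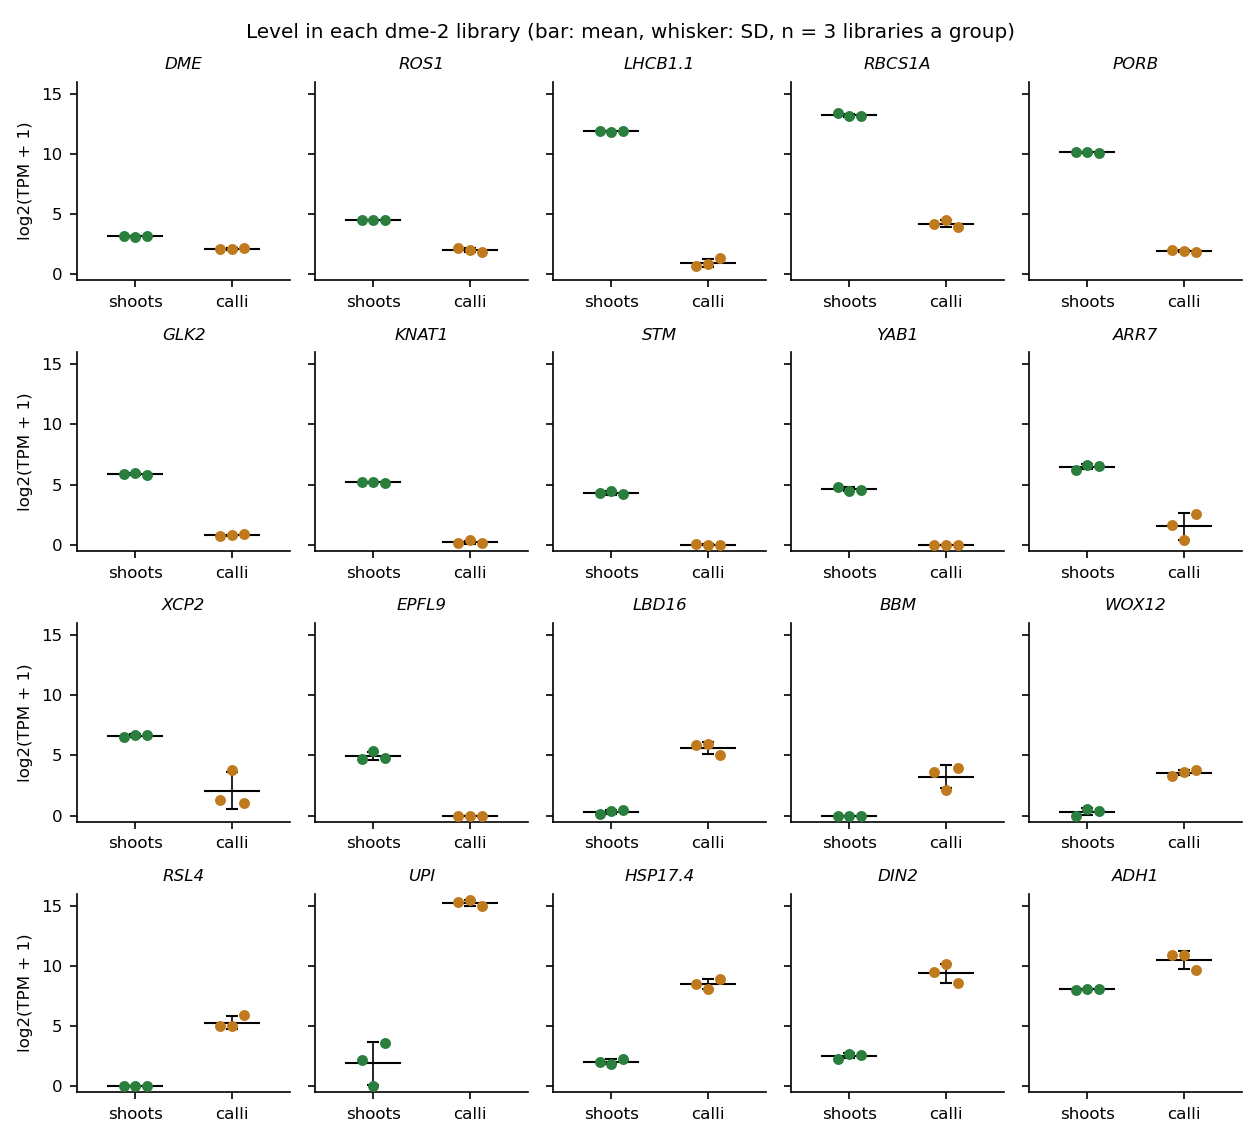
Level of 20 loci in each library as log2(TPM + 1), *dme-2* shoots at left and *dme-2* calli at right in every panel, with points for libraries, a bar for the mean and a whisker for the SD (n = 3 libraries a group). No panel shows an overlap between the groups. The loci from *DME* to *EPFL9* were higher in shoots and those from *LBD16* to *ADH1* were lower.

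All 56 photosynthesis loci of the nuclear genome that were followed were called higher in *dme-2* shoots, with a median log2 fold change of 6.92. Together they held 9.70% to 10.2% of the TPM of a shoot library and 0.0569% to 0.0950% of that of a callus library. The 14 antenna loci had a median of 7.48, the 12 of photosystem I 7.31, the 13 of photosystem II 6.47, the 6 of electron transport 5.94 and the 11 of carbon fixation 6.92. Outside the multigene families, *PSAN* of photosystem I was at 1402, 1275 and 1248 TPM in shoots and 4.49, 2.82 and 1.36 TPM in calli (log2 fold change 8.48, SE 0.29, limma adjusted p = 6.9e-07). *PSBR* of photosystem II was the most abundant single-copy member, at 4859, 5299 and 5163 TPM in shoots and 92.8, 107 and 40.8 TPM in calli. The smallest change in the group was that of *PSBP-2*, with 8.32, 4.72 and 2.33 TPM in shoots and 0.760, 0.430 and 0 TPM in calli.

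Chlorophyll synthesis moved with it: all 13 loci were called higher, with a median of 4.36. *PORB*, which reduces protochlorophyllide in the light, was at 1106, 1114 and 1088 TPM in shoots and 2.94, 2.75 and 2.65 TPM in calli (log2 fold change 8.19, SE 0.09, limma adjusted p = 3.3e-08, 2 Col homologs). Among 11 regulators of greening, 7 were called higher and 2 lower. *GLK2*, a transcription factor that drives chloroplast development, was at 58.1, 61.9 and 56.2 TPM in shoots and 0.690, 0.750 and 0.820 TPM in calli. *HY5*, the bZIP factor that promotes light responses, went the other way, at 4.19, 4.34 and 5.71 TPM in shoots and 119, 122 and 87.6 TPM in the dark-grown calli (log2 fold change -4.26, SE 0.17, limma adjusted p = 1.5e-06). Photosynthesis transcripts were thus far more abundant in the tissue labelled shoot than in that labelled callus, but not absent from callus. The 56 loci summed to 96993 to 102053 TPM in shoots and to 568.5 to 950 TPM in calli.

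Of 31 tested genes of callus and root founder identity 15 were called lower in *dme-2* shoots, 5 higher and 11 neither. With median ratio scaling 16 were called lower and 4 higher. All 4 *LBD* genes downstream of auxin in callus formation were called lower. *LBD16*, which starts lateral root founder divisions, was at 0.110, 0.280 and 0.370 TPM in shoots and 56.6, 59.9 and 31.8 TPM in calli, a ratio of means of 195 in favour of calli (log2 fold change -5.28, SE 0.26, limma adjusted p = 3.2e-06). *LBD17* and *LBD29* were listed at 0 in all shoots, with 0.730 to 6.52 and 8.35 to 9.32 TPM in calli, and *LBD18* had 1.89 to 2.01 TPM in shoots and 19.7 to 30.7 TPM in calli. *LBD16*, *LBD17* and *LBD29* thus met the minimum level only through the calli, which fixed their direction in advance.

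Of 8 *PLT* and related AP2 genes, 6 were tested, 3 were called lower and 1 higher. *BBM*, which can induce embryo and root stem cell fate, was listed at 0 in shoots and at 11, 3.45 and 14.8 TPM in calli. *PLT3* was at 5.2, 5.71 and 5.05 TPM in shoots and 53.3, 42.2 and 57.2 TPM in calli, whereas *PLT5* overlapped between the groups (log2 fold change -0.31, limma adjusted p = 0.28). The member that was higher was *ANT*, known for organ growth, at 20.4, 20.9 and 26.2 TPM in shoots and 1.75, 3.14 and 1.86 TPM in calli. Of the 6 *WOX* genes 4 were called lower and none higher. *WOX11* and *WOX12*, which act in root founder cells, had at most 0.570 and 0.490 TPM in a shoot library and at least 3.98 and 9.03 TPM in a callus library. *WOX5* of the root stem cell niche averaged 0.877 ± 0.584 TPM in shoots and 4.79 ± 2.88 TPM in calli (SD, n = 3 each), with every shoot library below every callus library (log2 fold change -1.54, SE 0.41, limma adjusted p = 0.012). *BBM*, *WOX11*, *WOX12* and *WOX5* averaged under 1 TPM in shoots and met the minimum level only through the calli, which fixed their direction.

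Root patterning genes were split, with 2 called higher and 3 lower of 9 tested. These are 22.2% and 33.3% of few loci, against 33.6% and 14.9% of all loci. *TMO7*, a small bHLH protein that auxin response factors activate, was listed at 0 in shoots and at 30.3, 4.23 and 37.8 TPM in calli. *JKD* was higher, at 14.6, 15.1 and 14.5 TPM in shoots and 1.14, 0.360 and 2.00 TPM in calli. *SCR*, needed for ground tissue and the root niche, was at 14.8, 12.3 and 14.1 TPM in shoots and 5.48, 4.91 and 8.90 TPM in calli, but its log2 fold change of 1.02 fell under 1 with median ratio scaling (0.59) and without the first callus (0.94), the second callus (0.87) or the first shoot library (0.97). The auxin response factors *ARF7* and *ARF19* were not called and their groups overlapped (0.27 and 0.17, but -0.18 and -0.27 with median ratio scaling). Of the DOF factors that the study followed, *TMO6* was lower (15.1, 17.55 and 16.1 TPM in shoots, 96.8, 90.5 and 78.8 TPM in calli; log2 fold change -2.38, SE 0.12, limma adjusted p = 3.4e-06), *HCA2* was higher (log2 fold change 1.84, limma adjusted p = 0.0018), and *DOF2.1* and *PEAR2* were not called (0.03 and 0.04, but -0.43 and -0.38 with median ratio scaling). *TAA1*, an enzyme of auxin synthesis, was at 18.6, 19.6 and 18.6 TPM in shoots and 1.92, 0.250 and 0.310 TPM in calli. *TMO7* in shoots and *TAA1* in calli averaged under 1 TPM, so only the other group carried each over the minimum level and fixed its direction.

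Of 16 tested markers of root cell types 10 were called lower and 3 higher. Those called lower include 5 root hair and cap markers whose direction the filter fixed. All 5 tested markers of root hairs and root cap, of 11 followed, were called lower. The 11 summed to 0.27 to 0.42 TPM in shoots and 92.8 to 107 TPM in calli. The tested ones thus met the minimum level only through the calli, which fixed their direction in advance. *RSL4*, which sets root hair growth, was listed at 0 in shoots and at 30.5, 30.9 and 59.6 TPM in calli. The 6 markers that were not tested include *EXPA7* and *COBL9* of mature root hairs, both near 0 in both groups. Of 6 tested genes of root meristem peptide signalling 4 were called lower, among them *RGF3* with 0.830, 0 and 0 TPM in shoots and 11.1, 22.1 and 10.2 TPM in calli. Endodermis genes were mixed: *PER64*, a peroxidase of the Casparian strip, was at 20.8, 23.61 and 23.0 TPM in shoots and 0, 0.490 and 0 TPM in calli, and *MYB36* was lower in shoots (log2 fold change -1.42, limma adjusted p = 0.00058). *RGF3* in shoots and *PER64* in calli were also under the minimum level, so the other group fixed their direction.

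**Figure D3:**
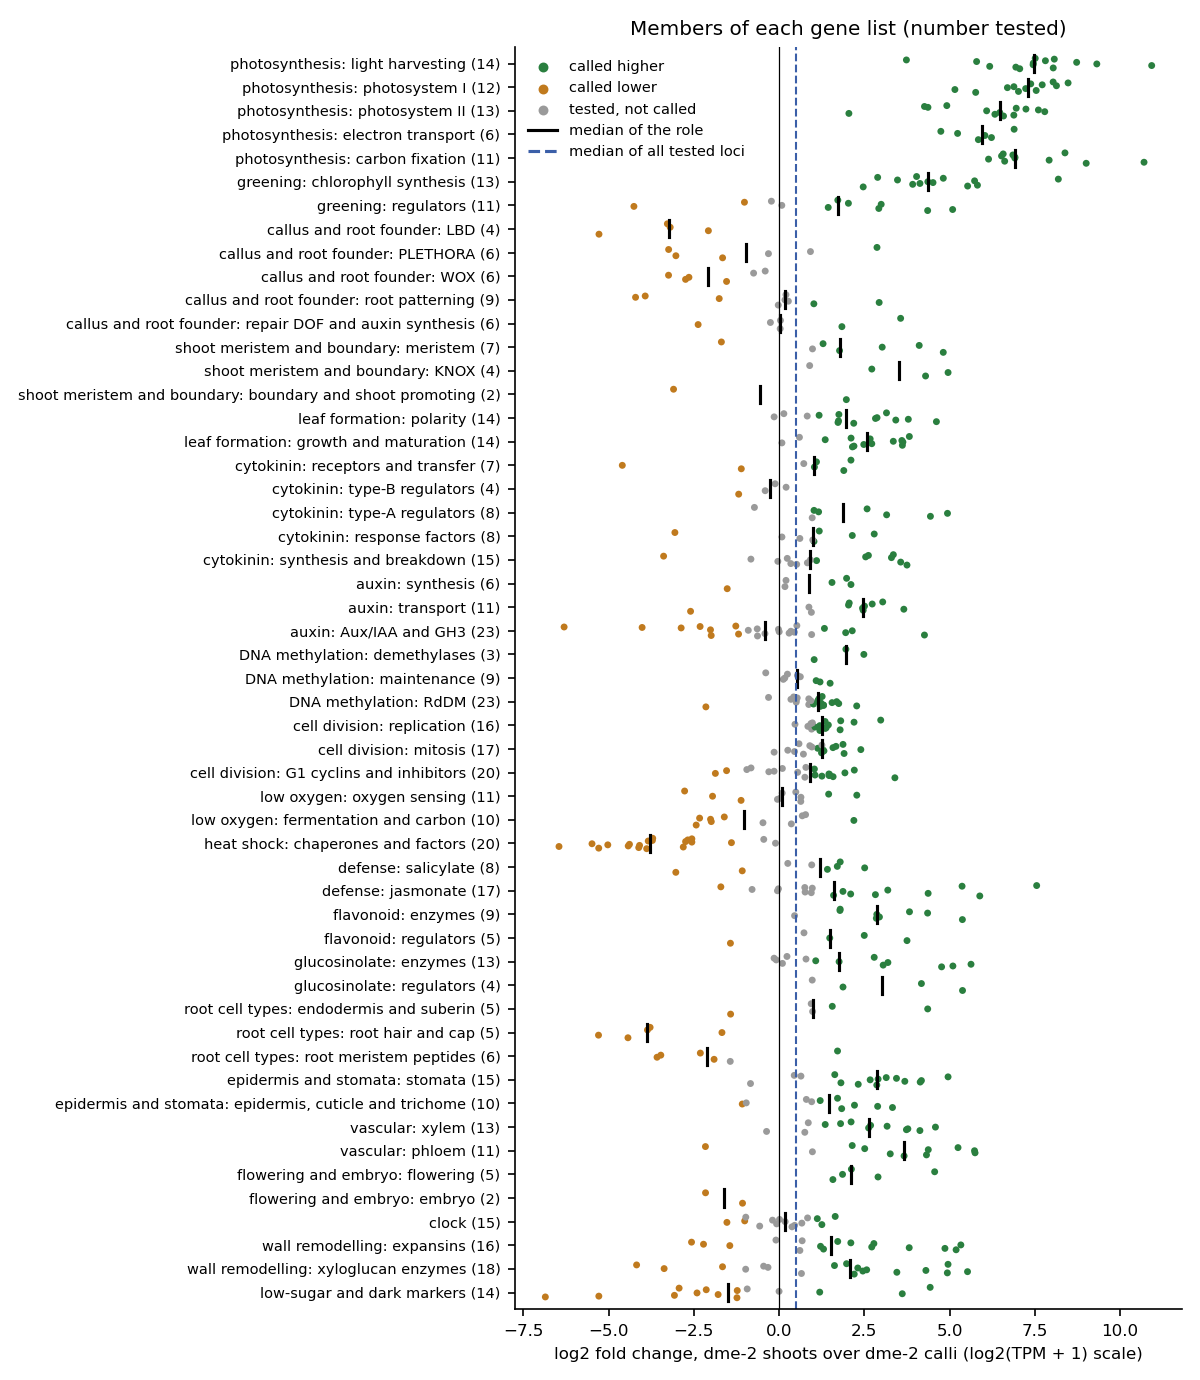
Log2 fold change of *dme-2* shoots over *dme-2* calli for every tested member of each gene list, by role, with green points for loci called higher in shoots, orange for lower and grey for not called. The black bar is the median of the role and the dashed line that of all tested loci (0.48). Photosynthesis roles lie far to the right, and the *LBD*, root hair and cap and heat shock lists far to the left.

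Of 7 tested shoot meristem genes outside the *KNOX* family 5 were called higher in *dme-2* shoots and 1 lower. Of the 4 class I *KNOX* genes 3 were called higher. *KNAT1*, also known as *BREVIPEDICELLUS*, was at 36, 36.4 and 34.2 TPM in shoots and 0.120, 0.300 and 0.120 TPM in calli, a ratio of means of 197 (log2 fold change 4.96, SE 0.13, limma adjusted p = 2.5e-07). *STM*, which maintains the shoot meristem, was at 18.5, 21.4 and 17.39 TPM in shoots and 0.0600, 0 and 0 TPM in calli (log2 fold change 4.3, SE 0.14, limma adjusted p = 5.9e-07). *KNAT2* was at 5.06, 6.98 and 4.90 TPM in shoots and listed at 0 in calli, and *KNAT6* had a log2 fold change of 0.90, short of the cut-off. *KNAT1*, *STM* and *KNAT2* met the minimum level only through the shoots, so their direction was fixed in advance. The receptor kinase *CLV1* was at 36.2, 40.0 and 39.3 TPM in shoots and 0.300, 0.450 and 0.460 TPM in calli, but *WUS* and *CLV3*, which mark the stem cell organizer and the stem cells, were too low to be tested: *WUS* had 0.170, 0 and 0.290 TPM in shoots and *CLV3* 0, 0.980 and 0 TPM, and both were listed at 0 in calli. These defining markers of a shoot meristem were therefore near 0 in whole shoots too. *PNF*, a homeodomain partner of *KNOX* proteins, was lower in shoots (6.82, 7.38 and 5.89 TPM, against 20.7, 29.5 and 22.1 TPM in calli).

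Of 8 boundary and shoot-promoting genes only 2 were tested. *CUC1*, which separates organs, was at 3.21, 3 and 3.22 TPM in shoots and 0.0800, 0 and 0.0900 TPM in calli. *RAP2.6L*, an ERF factor known for its part in shoot regeneration, was lower in shoots, at 24.4, 22.6 and 25.0 TPM against 206, 249 and 187 TPM in calli (log2 fold change -3.10, SE 0.13, limma adjusted p = 1.6e-06). The other 6 members stayed under a mean of 1 TPM.

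Of 28 tested leaf genes 23 were called higher in *dme-2* shoots and none lower, and 5 more were too low to be tested. Of 14 tested polarity genes 11 were called higher and none lower, with a median of 1.97. *YAB1*, which gives the lower leaf side its fate, was at 26.7, 21.5 and 22.6 TPM in shoots and listed at 0 in calli. *ARF3*, the most abundant member, was not called (log2 fold change 0.14, limma adjusted p = 0.29, and -0.33 with median ratio scaling). Of 14 tested genes of leaf growth and maturation 12 were called higher and none lower. *TCP2*, which slows leaf cell division, was at 40.6, 41.1 and 46.7 TPM in shoots and 3.58, 1.62 and 2.66 TPM in calli, and *SPL3*, a factor of the change to the adult phase, was at 16.3, 13.1 and 10.5 TPM in shoots and listed at 0 in calli. *YAB1* and *SPL3* met the minimum level only through the shoots, which fixed their direction.

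Hormone genes changed in both directions, as the plot of cytokinin and auxin members shows. Type-A response regulators are induced by cytokinin and dampen its signal, and 6 of 8 tested were called higher in *dme-2* shoots, none lower. *ARR7* was at 74.2, 97.0 and 94.2 TPM in shoots and 2.1, 0.310 and 4.98 TPM in calli (log2 fold change 4.94, SE 0.51, limma adjusted p = 0.00012), and *ARR5* was at 81.3, 87.0 and 90.0 TPM in shoots and 2.7, 2.27 and 4.34 TPM in calli (2 Col homologs). Under median ratio scaling 4 of the same loci were called higher and 1 lower. Of the 4 tested type-B regulators, the transcriptional activators, 1 was called lower and none higher. *ARR1* was at 30.7, 30.0 and 28.2 TPM in shoots and 71.2, 90.2 and 50.4 TPM in calli (log2 fold change -1.19, SE 0.20, limma adjusted p = 0.0017), and without the second callus library this was -0.99 and no longer a call. Of 7 tested receptor and phosphotransfer genes 4 were called higher and 2 lower, with a median of 1.04. With median ratio scaling 2 were called higher and 2 lower. The cytokinin receptor *AHK3* was lower in shoots (log2 fold change -1.11, SE 0.14, limma adjusted p = 0.0004), with -0.96 without the second callus library. *AHP1*, which passes the phosphoryl group from receptor to regulator, had the largest fall of the list, at 6.42, 7.52 and 8.71 TPM in shoots and 213, 254 and 160 TPM in calli.

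Of 8 cytokinin response factors 4 were called higher and 1 lower. With median ratio scaling 2 were called higher and 1 lower, against 25.0% and 20.8% of all loci, and 1 called member changed sign. *CRF6* was at 22.5, 23.7 and 25.9 TPM in shoots and 2.37, 1.31 and 5.08 TPM in calli. *CRF7* was at 9.2, 7.92 and 15.5 TPM in shoots and 95.0, 87.9 and 100 TPM in calli. Of 15 tested genes of cytokinin synthesis and breakdown 7 were called higher and 1 lower (6 and 2 with median ratio scaling). *IPT3*, which makes cytokinin, was at 14.3, 11.5 and 14.7 TPM in shoots and 0, 0 and 0.230 TPM in calli. The oxidase *CKX5*, which degrades cytokinin, was at 2.80, 2.62 and 3.88 TPM in shoots and 42.6, 49.1 and 34.3 TPM in calli.

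**Figure D4:**
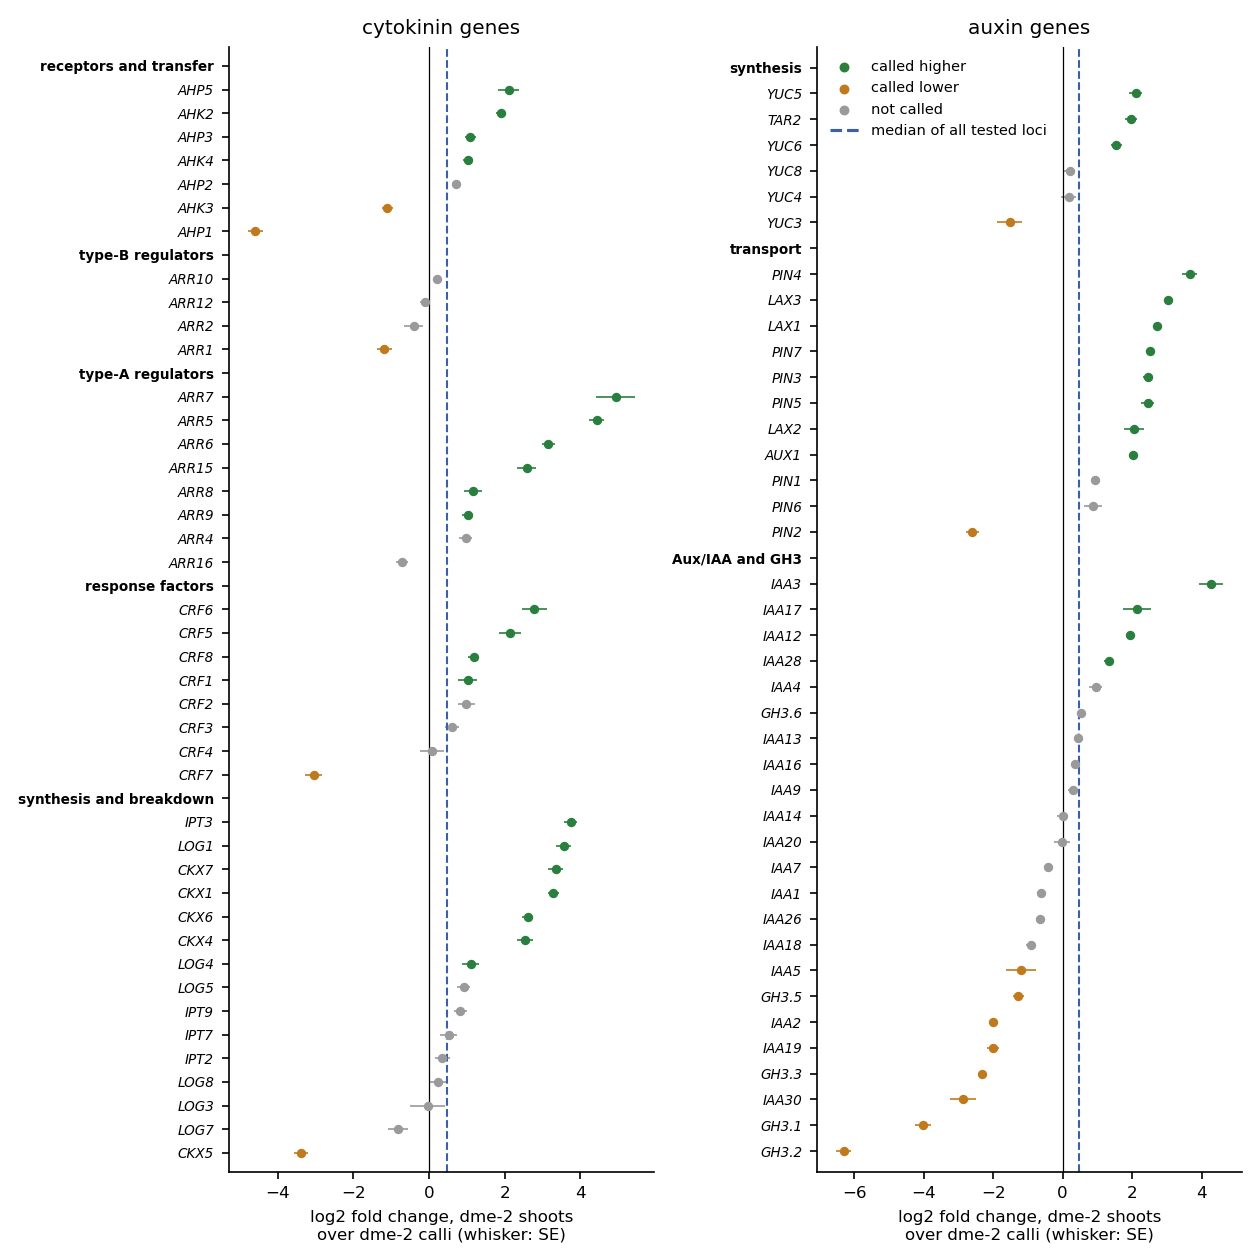
Log2 fold change of *dme-2* shoots over *dme-2* calli for each tested cytokinin gene (left) and auxin gene (right), ordered within roles, with whiskers for the SE. Green marks loci called higher, orange lower and grey not called, and the dashed line is the median of all tested loci (0.48). *ARR7* and *ARR5* lead the type-A regulators at 4.94 and 4.44, and *GH3.2* ends the auxin list at -6.31.

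Auxin transport genes were mostly higher and auxin response genes more often lower. Of 11 tested transport genes 8 were called higher and 1 lower, with a median of 2.45. *PIN7*, an efflux carrier, was at 141, 148 and 149 TPM in shoots and 23.4, 25.1 and 26.3 TPM in calli. The exception was *PIN2*, a carrier of the root tip, at 0.0300, 0.330 and 0.230 TPM in shoots and 7.38, 5.46 and 5.90 TPM in calli. Of 23 tested Aux/IAA and GH3 genes, many of which auxin induces, 8 were called lower and 4 higher. *GH3.2*, which conjugates auxin to amino acids, was at 2.72, 3.33 and 3.18 TPM in shoots and 317, 437 and 238 TPM in calli (log2 fold change -6.31, SE 0.22, limma adjusted p = 7.6e-07, 3 Col homologs). *IAA3* was higher, at 48.8, 54.9 and 58.7 TPM in shoots and 1.03, 1.26 and 4.12 TPM in calli.

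Of 35 tested DNA methylation genes 19 were called higher and 1 lower, with a median of 1.03. With median ratio scaling 7 were called higher and 1 lower, a share of higher calls below the 25.0% of all loci at that scaling. Of the demethylases, *ROS1* was at 21.4, 21.8 and 21.5 TPM in shoots and 3.43, 3.13 and 2.58 TPM in calli, a ratio of means of 7.08 (log2 fold change 2.49, SE 0.13, limma adjusted p = 4.2e-06). *DML2* was at 7.74, 8.4 and 7.56 TPM in shoots and 1.06, 2.34 and 0.740 TPM in calli, and *DML3* was too low to be tested, at 0.440, 0.570 and 0.410 TPM in shoots and 0, 0.0200 and 0 TPM in calli. The maintenance methyltransferase *MET1* was at 20.3, 22.3 and 21.1 TPM in shoots and 6.48, 3.75 and 12.8 TPM in calli (log2 fold change 1.5, SE 0.36, limma adjusted p = 0.0079). *CMT3*, which maintains CHG methylation, was called at 1.09 (limma adjusted p = 0.045), a call lost with median ratio scaling (0.67) and without any one library other than the third callus library. Of 23 tested genes of RNA-directed DNA methylation (RdDM), 13 were called higher and 1 lower, with a median of 1.13. *AGO4*, which holds the small RNA, was at 32.2, 33.5 and 30.7 TPM in shoots and 13.5, 4.24 and 17.9 TPM in calli. The member that was lower was *NRPD1*, the largest subunit of RNA polymerase IV, at 3.01, 2.44 and 3.32 TPM in shoots and 14.7, 19.0 and 15.5 TPM in calli (log2 fold change -2.15, SE 0.16, limma adjusted p = 2.2e-05). Only 7 RdDM genes were called higher without the second callus library, and 4 with median ratio scaling, while *NRPD1* was lower in each case.

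Of 53 tested cell division genes 30 were called higher in *dme-2* shoots, 2 lower and 21 neither. These were 11 higher of 16 replication genes and 9 of 17 mitosis genes, with medians of 1.27 and 1.24 and none lower, and 10 higher and 2 lower of 20 cyclins and inhibitors of the start of the cycle. *TSO2*, a ribonucleotide reductase subunit, was at 114, 103 and 103 TPM in shoots and 13.3, 12.1 and 12.5 TPM in calli. *KNOLLE*, the syntaxin of the cell plate, was at 29.0, 30.7 and 28.5 TPM in shoots and 8.58, 3.44 and 12.4 TPM in calli. Of these last, *CYCD1;1* was at 13.2, 14.4 and 12.2 TPM in shoots and 0.280, 0.140 and 0.700 TPM in calli, while the inhibitor *KRP1* was lower, at 21.3, 26.1 and 16.9 TPM against 83.2, 90.0 and 68.0 TPM in calli. With median ratio scaling 17 of the 53 were called higher, against 25.0% of all loci, and 4 lower: 6 replication genes, 5 mitosis genes and 6 of the cyclins and inhibitors were higher. The mitosis genes summed to 173 to 191 TPM in shoots and to 31.5 to 113 TPM in calli, so that the callus libraries were unequal.

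Most tested genes of stomata, xylem, phloem and epidermis were called higher in *dme-2* shoots. Of 15 stomatal genes 12 were called higher and none lower (1 lower with median ratio scaling), with a median of 2.87, led by *EPFL9*, the peptide that promotes stomata, at 25.4, 40.6 and 26.2 TPM in shoots and listed at 0 in calli. Of 13 xylem genes 10 were called higher and of 11 tested phloem genes 9. *XCP2*, a protease of xylem vessels, was at 92.3, 103 and 104 TPM in shoots and 1.46, 13.1 and 1.13 TPM in calli, where the second callus library stood apart. *PP2-A1*, a phloem lectin, was at 123, 145 and 141 TPM in shoots and 1.12, 0.510 and 4.18 TPM in calli. *CLE44*, which encodes a peptide that keeps vascular cells from becoming xylem, was lower in shoots, at 18.8, 16.8 and 17.56 TPM against 84.8, 93.2 and 71.3 TPM in calli. Of 10 tested genes of epidermis, cuticle and trichomes 6 were called higher and 1 lower (5 and 2 with median ratio scaling). *PDF1* was at 254, 209 and 225 TPM in shoots and 28.6, 5.98 and 57.0 TPM in calli, and the wax gene *CER1* was lower in shoots (log2 fold change -1.08, SE 0.14, limma adjusted p = 0.00039).

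Of 15 genes of flowering, 10 were under the minimum level and the 5 tested were called higher. They include *AGL24*, a MADS-box promoter of flowering, at 26, 21.2 and 21.1 TPM in shoots and listed at 0 in calli, and *SVP* at 95.1, 109 and 98.9 TPM in shoots and 26, 22.5 and 19.2 TPM in calli. Floral identity genes *LFY*, *AP1* and *AG* were too low to be tested. The floral homeotic gene *PI* was among those called higher, at a mean of 62.5 TPM in shoots and 16.5 TPM in calli (log2 fold change 1.86). Of 14 embryo genes 12 were too low, and the 2 tested, *WOX2* (listed at 0 in shoots, 3.5, 3.62 and 3.28 TPM in calli) and *AGL15*, were lower. *WOX2* met the minimum level only through the calli and *AGL24* only through the shoots, so the direction of each was fixed in advance.

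Of 20 heat shock genes 18 were called lower in *dme-2* shoots and none higher, with a median of -3.78. *HSP17.4*, a small chaperone, was at 3.03, 2.64 and 3.75 TPM in shoots and 366, 273 and 470 TPM in calli (log2 fold change -6.46, SE 0.21, limma adjusted p = 6.1e-07, 3 Col homologs). *MBF1C*, a coactivator of the heat response, was at 109, 140 and 133 TPM in shoots and 1545, 1548 and 1926 TPM in calli. Of 10 genes of fermentation and carbon use under low oxygen 5 were called lower and 1 higher. *ADH1*, alcohol dehydrogenase, was at 261, 265 and 266 TPM in shoots and 1913, 1917 and 794 TPM in calli, with the third callus library well under the other two. *SUS4*, a sucrose synthase, was higher, at 172, 171 and 167 TPM in shoots and 67.2, 38.3 and 18.5 TPM in calli. Oxygen sensing genes were split, 2 higher and 3 lower of 11, with the ERF factor *RAP2.3* at 1075, 1096 and 1126 TPM in shoots and 2374, 2668 and 2135 TPM in calli.

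Of 14 markers of low sugar and darkness 9 were called lower and 3 higher. *DIN2*, a beta-glucosidase induced in the dark, was at 3.93, 5.46 and 5.24 TPM in shoots and 712, 1147 and 378 TPM in calli (log2 fold change -6.86, SE 0.38, limma adjusted p = 5.9e-06). Of the clock genes, which cycle with the time of day, 3 of 15 were called higher and 2 lower. These are 20% and 13.3%, against 33.6% and 14.9% of all loci. The largest changes were 1.65 for *LNK2* and -1.53 for *PRR9*. With median ratio scaling 1 clock gene was called higher and 3 lower.

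Flavonoid and glucosinolate genes were mostly higher in shoots. Of 9 tested flavonoid enzymes 8 were called higher and none lower. *CHS*, chalcone synthase, was at 150, 148 and 141 TPM in shoots and 3.3, 5.68 and 0.550 TPM in calli. Of 13 tested glucosinolate enzymes 8 were called higher and none lower, led by *CYP83A1* at 49.5, 53.2 and 54.6 TPM in shoots and 0.140, 0.05 and 0.05 TPM in calli. Its regulator *MYB28* was at 43.1, 49.8 and 48.5 TPM in shoots and 0.0700, 0.130 and 0.270 TPM in calli. Of 17 jasmonate genes 9 were called higher and 1 lower (2 with median ratio scaling), led by a *PDF1.2* defensin locus with 5 Col homologs, at 164, 216 and 185 TPM in shoots and listed at 0 in calli. The member called lower was *JAZ10*, a repressor of jasmonate signalling, at 47.1, 57.1 and 57.9 TPM in shoots and 176, 108 and 297 TPM in calli. Salicylate genes were split, with *ICS1*, which makes salicylate, higher (log2 fold change 2.51, SE 0.33, limma adjusted p = 0.00043) and the locus shared by *PR1* and *PRB1* lower (37.2, 42.3 and 40.7 TPM in shoots, 254, 345 and 425 TPM in calli). Wall remodelling enzymes changed in both directions: 10 of 16 expansins were called higher and 3 lower, and 11 of 18 xyloglucan enzymes higher and 3 lower. *XTH9* was at 184, 242 and 237 TPM in shoots and 8.20, 1.2 and 4.40 TPM in calli, and *XTH30* at 7.31, 7.40 and 6.01 TPM in shoots and 161, 182 and 97.5 TPM in calli.

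Most of this change was shared with the WT. Of 18419 loci tested in both genotypes, 5623 were called higher and 2461 lower in shoots of both, 8 were higher in *dme-2* and lower in WT, and 5 were lower in *dme-2* and higher in WT. The difference of the stage change between genotypes had an adjusted p under 0.05 at 2060 of 18813 loci (10.9%): for 1269 the change was more positive in *dme-2* and for 791 more negative. This count depended on single libraries and ran between 1271 without the second WT shoot library and 3469 without the second *dme-2* callus library.

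The stage change of *PI*, a floral homeotic MADS-box gene, was opposite in the 2 genotypes. It was at 59.8, 66.2 and 61.5 TPM in *dme-2* shoots, against 15.2, 16.2 and 18.16 TPM in *dme-2* calli, while in WT the means were 2.08 TPM in shoots and 21.1 TPM in calli (difference of log2 fold changes 4.68, SE 0.26, limma adjusted p = 6.6e-06). *JAZ8*, another jasmonate repressor, was at 68.5, 103 and 112 TPM in *dme-2* shoots, against 62.8, 42.7 and 60.0 TPM in *dme-2* calli, while the WT means were 6.80 TPM in shoots and 79.0 TPM in calli (difference 4.15, limma adjusted p = 0.0001). The peroxidase *AT2G37130* fell less in *dme-2* than in WT (log2 fold changes -2.26 and -6.24). In the other direction the *PR1* and *PRB1* locus fell in *dme-2* (log2 fold change -3.03), whereas in WT it was higher in shoots (2.07), a difference of -5.10 (limma adjusted p = 1.3e-06). *ECS1*, a wall protein, was at 2.90, 6.29 and 4.71 TPM in *dme-2* shoots but listed at 0 in *dme-2* calli, with a log2 fold change of 8.12 in WT (difference -5.68, limma adjusted p = 0.00017). *AT1G62600* and *ATERF019* also differed, at 5.94 and 3.81, but each had 1 callus library of *dme-2* far from the other two, 28.1 TPM for *AT1G62600* and 15.8 TPM for *ATERF019*. *BNS*, a subunit of the anaphase-promoting complex, differed at -4.39 and was unequal among *dme-2* shoots, at 42.1, 6.19 and 4.22 TPM. *GLP6*, a germin-like locus with 8 Col homologs, was at 0.370, 0 and 0 TPM in *dme-2* shoots, against 11.3, 7.85 and 12.5 TPM in *dme-2* calli (difference -4.66, limma adjusted p = 7.7e-06). *FEP3*, a peptide of the iron deficiency response, differed at -5.02 (limma adjusted p = 0.037) but was at 0, 0 and 18.6 TPM in *dme-2* shoots that had 24, 34 and 27 read counts, so that its zeros do not stand for a lack of reads.

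**Figure D5:**
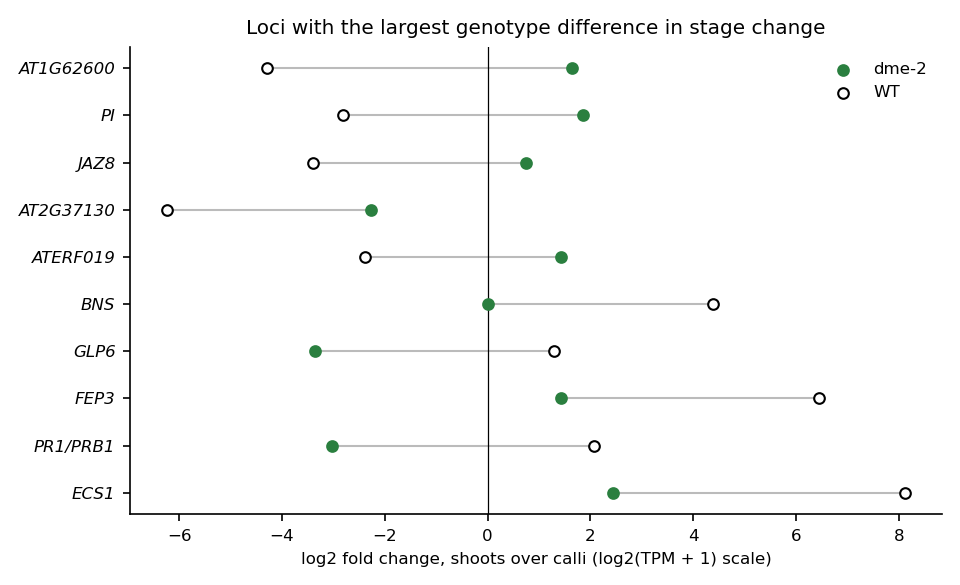
Log2 fold change of shoots over calli in *dme-2* (filled) and in WT (open) for the 10 loci with the largest differences between genotypes, 5 in each direction. *PI* stands at 1.86 in *dme-2* and -2.82 in WT, and *ECS1* at 2.45 in *dme-2* and 8.12 in WT.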

How the data were processed

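RNA was extracted by the authors with an RNeasy kit, made into TruSeq stranded mRNA libraries and sequenced on a NovaSeq instrument. Per the paper's methods, reads were mapped to the Ler genome with STAR 2.7.10a and quantified with RSEM 1.3.1, and the deposited table gives TPM and counts per Ler locus. The TPM values deposited by the authors were used. The deposited counts of the columns named for *dme-2* calli do not follow their TPM: over 11747 loci the median departure was 0.82 to 1.00 on the log2 scale, against 0.03 to 0.07 in the other 9 libraries. Counts therefore served only to check zeros and depth, which was 16215997 to 19228327 counts per *dme-2* shoot library. The depth behind the callus TPM is unknown.

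Values were tested as log2(TPM + 1) with limma 3.58.1 in R 4.3.3 (moderated test with a trend, Benjamini-Hochberg adjustment over all loci tested), on the 6 *dme-2* libraries, or all 12 for the genotype difference. Loci needed a mean of at least 1 TPM. Tables were handled with Python 3.11.15, pandas 2.3.3 and numpy 2.4.6, and the fit was tested on simulated data. The deposited table pairs 26500 of 27147 loci with Col homologs, 3683 of them with more than 1, and symbols came from it and from RefSeq's gene table. Genes named are the largest rises and falls, the most abundant, those that lead each list and role, genes the study names, and the 5 largest genotype differences each way. Others were named after their values were seen. Members and lists were chosen with earlier results of these data known. No sequence is printed, since no Ler genome was used here. Alternatives were another scaling (median ratios), rescaling without photosynthesis loci, pseudocount 0.1, a minimum of 5 TPM or none, no trend, all 12 libraries, a replicate block and leaving out each library.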

Additional observations from a re-analysis of the deposited data

Results flagged for a closer look

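The loci named in the report were searched for a stage change that differed between the genotypes, by the test of the difference itself (limma, Benjamini-Hochberg adjusted p under 0.05 over 18813 loci, of which 10.9% passed). The loci with the largest differences in each direction were named because of this same test, so their passing was fixed in advance. They are included in the counts below, which therefore cannot be set against the 10.9%. Values are the log2 fold change of shoots over calli in *dme-2* minus that in WT. Groups of 3 libraries were too small to search for single outlying libraries.

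For 19 of the named loci the change was more positive in *dme-2*. Those named because of this test were at 5.94 for *AT1G62600*, 4.68 for *PI*, 4.15 for *JAZ8*, 3.97 for *AT2G37130* and 3.81 for *ATERF019*. Stress and defence members followed, with 1.89 for *DIN2*, 1.84 for *JAZ10*, 1.46 for *MBF1C*, 1.22 for *RAP2.3* and 1.12 for *PR4*. Shoot and cytokinin members were *ARR5* at 1.79, *STM* at 0.96, *PNF* at 0.84 and *KNAT1* at 0.60, with *RAP2.6L* at 0.995. The others were *PER64* at 1.86, *EXT4* at 1.38, *DRN1* at 0.84 and *PORB* at 0.67.

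For 15 loci the change was more negative in *dme-2*. They were led by those named because of this test. These were at -5.68 for *ECS1*, -5.10 for the locus of *PR1* and *PRB1*, -5.02 for *FEP3*, -4.66 for *GLP6* and -4.39 for *BNS*. The DOF factors *TMO6*, *DOF2.1* and *PEAR2* were among the 15, at -1.82, -1.50 and -1.06, while *HCA2* (-0.82, adjusted p = 0.24) and *PEAR1* (-0.97, adjusted p = 0.42) did not pass limma's test. The glucosinolate genes *CYP83A1* and *MYB28* were at -1.27 and -0.75. The remaining values were -1.02 for a *CAB3* locus, -0.97 for *WOX2*, -0.70 for *OSM34*, -0.63 for *LNK2* and -0.55 for *AGL24*. What lies behind these differences was not tested.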

How the results depend on the processing

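The number of loci called between *dme-2* shoots and *dme-2* calli (9079) stayed within 1.5 times under every alternative, from 7109 with a minimum of 5 TPM to 9674 with a pseudocount of 0.1. Leaving out a library gave 8600 to 9555 calls, 5902 to 6807 of them higher and 2698 to 2782 lower. Rescaling without photosynthesis loci gave 6966 higher and 2526 lower. Over the named genes 2251 alternative values stayed on the same side of the cut-offs, 35 lost the call and 7 gained it. The sign changed in 18 values of 9 named genes, 9 of these values with median ratio scaling, and none of these genes was called. The count of loci whose stage change differed between genotypes (2060) was less steady, at 1271 to 3469 when a library was left out, lowest without the second WT shoot library and highest without the second *dme-2* callus library. It also moved by over 1.5 times without the third WT shoot library (1296) and without the second *dme-2* shoot library (1355) or the third (1329). The cause was not tested. Same-numbered *dme-2* libraries did not deviate together (correlations 0.0084, -0.015 and -0.022, with 1 of 3 matching its own number best). With 3 libraries a group these values cannot settle whether the numbers pair them. With the replicate number as a block 9113 loci were called, and 1219 differed between genotypes. Callus depth is unknown, so no counting limit can be given for callus zeros.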

Other observations

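Some zeros in the TPM table do not stand for a lack of reads. Each *dme-2* shoot library held 39 to 52 loci at 0 TPM that had at least 50 read counts in the same library, 69 loci in all, of which 20 were tested and 1 was called. The largest case was a locus of *MT1A*, a metallothionein that binds metals, with 2 Col homologs. Its TPM was 6563, 0 and 3640 in *dme-2* shoots and 0 in each *dme-2* callus library, while its counts in the shoots were 10659, 10730 and 10430. In WT calli it was also at 0 TPM, with 61187, 98821 and 87293 counts. Its log2 fold change of 8.17 had an SE of 3.16 and was not called (limma, Benjamini-Hochberg adjusted p = 0.0515). *SDH8*, a subunit of mitochondrial succinate dehydrogenase, was at 391, 121 and 146 TPM in *dme-2* shoots, against 419, 0 and 0 TPM in *dme-2* calli. *TOM6*, of the mitochondrial import pore, was at 169, 117 and 172 TPM in *dme-2* shoots, against 12.8, 0 and 143 TPM in *dme-2* calli. These were seen after the values were known, and their cause was not tested.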
